A study of Mus musculus with 24 samples.

Results

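The genes described here encode lysosomal hydrolases, their activators and carriers, and proteins of the lysosomal membrane, cathepsins aside. They were taken from a list of 38 mouse symbols that was matched to the deposited Ensembl gene IDs, and 38 of 38 were found among 54446 IDs. The list groups genes by function and was drawn up with earlier results of these data known.

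Lysosomes are acid compartments in which hydrolases degrade glycosaminoglycans, glycoproteins, glycogen, sphingolipids, sterol esters and proteins that arrive by endocytosis, phagocytosis and autophagy. Their membrane carries heavily glycosylated proteins, channels and transporters that protect the cell, move ions and export the products. In white matter, microglia and macrophages take up myelin debris into lysosomes, and inherited loss of several of these enzymes, such as arylsulfatase A or prosaposin, damages myelin.

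The measurements are bulk RNA sequencing of polyadenylated RNA in 24 libraries of mouse corpus callosum, a white matter tract between the hemispheres. The groups were naive mice given vehicle (n = 4), naive mice given an inhibitor of Bruton's tyrosine kinase (BTKi, n = 4), mice given cuprizone and vehicle (n = 8), and mice given cuprizone and BTKi (n = 8). Cuprizone is a copper chelator whose feeding kills oligodendrocytes and strips myelin, and Bruton's tyrosine kinase signals in B cells and myeloid cells, microglia included. The inhibitor was given once disease had been induced, per the design text. The sources used here name neither the compound and its dose nor the lengths of treatment, and give no strain, sex or age. Whether each library came from its own animal is not said in the labels. The p-values therefore measure only the spread between libraries, and that spread may be technical.

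Expression was deposited as FPKM, the fragments of a gene per kilobase of its length, scaled to the fragments of the library. The spacing of the lowest values put the depth at about 2.647e+07 fragments in cuprizone BTKi 5 and at 2.983e+07 to 3.097e+07 in the other 23 libraries. Oligodendrocyte markers, which define the tissue's main glial population, were present in every library, with a summed level of 3508 to 4926 FPKM over 11 genes in naive vehicle libraries and 1111 to 1831 FPKM in cuprizone vehicle libraries. Neuron markers, 9 genes, summed to 2175 to 2599 FPKM over all libraries, above the oligodendrocyte sum of every cuprizone vehicle library. Markers of neighbouring tissue varied: 8 choroid plexus markers summed to 30.28 to 1527 FPKM in cuprizone vehicle libraries and were lowest in cuprizone vehicle 1, 4 and 7. Markers of striatal neurons were highest in naive vehicle 2, and their part in the results was not tested.

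Of the 38 genes, 37 had a mean of at least 0.5 FPKM over all libraries and were tested. Acp5, a tartrate-resistant acid phosphatase best known from osteoclasts, had a mean of 0.268 FPKM and was left out. Per kilobase of gene, the most abundant was Psap, the precursor of the saposins that present sphingolipids to their hydrolases, at 586.1 ± 12.1 FPKM (SD, n = 4) in naive vehicle libraries. It held 35.4% of the summed FPKM of the 38 genes there. The least abundant gene tested was Sgsh, a sulfatase of heparan sulfate, at 2.116 ± 0.229 FPKM (SD, n = 4).

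Many lysosomal genes are known targets of the transcription factor TFEB, which binds a palindromic site with the core CACGTG. Promoters of 35 of the 38 genes were matched in RefSeq (GRCm38.p6), each from 250 bases before to 50 bases after the annotated start. The core CACGTG, which reads the same on both strands, occurred in 8 of the 35 promoters (22.9%) and in 7.15% of 32851 mouse promoters of the same length. The 8 were those of Lamp1, Mcoln1, Naglu, Sgsh, Gaa, Glb1, Gla and Arsa. The longer palindrome TCACGTGA, which contains the core, occurred in Mcoln1 and Gla (5.71% against 0.974% of all promoters). The full CLEAR element, the longest palindrome searched and one that contains both shorter forms, occurred in 0 of 35 and in 0.326% of all promoters. The purine-rich motif GAGGAAGT (the reverse strand reads ACTTCCTC), which holds the core bound by the myeloid factor PU.1, occurred in Gusb and Gla (5.71% against 3.2%). A match is a description of the letters and not a binding site. Stretches of 95 bases, from 100 to 6 bases before the start, are shown as examples. They cover promoters that hold the core, in capitals, and a pair that lacks it in this window, of genes that rose with cuprizone.
Lamp1 (chr8:13159061-13159155, plus strand): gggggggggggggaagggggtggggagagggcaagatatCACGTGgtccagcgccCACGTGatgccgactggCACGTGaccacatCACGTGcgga
Glb1 (chr9:114400978-114401072, plus strand): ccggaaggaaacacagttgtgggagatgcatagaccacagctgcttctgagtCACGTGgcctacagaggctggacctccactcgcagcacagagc
Arsa (chr15:89477430-89477524, minus strand): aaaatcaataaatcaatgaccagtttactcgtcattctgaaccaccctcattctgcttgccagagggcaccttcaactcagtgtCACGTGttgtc
Cd68 (chr11:69666176-69666270, minus strand): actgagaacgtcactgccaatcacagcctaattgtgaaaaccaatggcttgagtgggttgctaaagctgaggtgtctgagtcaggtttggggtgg
Man2b1 (chr8:85083169-85083263, plus strand): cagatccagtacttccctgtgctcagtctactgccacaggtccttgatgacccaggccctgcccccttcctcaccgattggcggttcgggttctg
The Lamp1 stretch holds 4 copies of the core, and those of Glb1 and Arsa hold 1 each.

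The comparison of cuprizone with naive libraries under vehicle asks how the model changes these genes. A subset rose, led by Cd68, Laptm5 and Grn, while the classical membrane markers Lamp1 and Lamp2 and the abundant Psap did not pass the test. On log2(FPKM + 0.5), with limma and Benjamini-Hochberg adjustment over all 15216 genes at 0.05, 13 of the 37 were higher and 1 was lower. Of all genes tested, 10.2% were higher and 4.82% lower (15.0% called). The median log2 difference of the 37 was 0.10, against 0.03 over all genes tested. No library of one group overlapped the other for 9 genes that were higher, against 5.92% of all genes, and for 1 that was lower, against 2.85%. Other scalings moved the split over all genes from 1555 higher and 733 lower to 1228 and 978 (median ratio) or 1205 and 1072 (quantile), and left 12 of the 37 higher under each, Neu1 being the one lost. Without the 3 libraries poor in choroid plexus RNA, 17 of the 37 were higher and 1 was lower. In bulk tissue, more cells of a type cannot be told apart from more RNA per cell.

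Among the 10 membrane proteins and transporters, 3 were higher (Cd68, Laptm5 and Scarb2), 1 was lower (Laptm4b) and 6 did not pass the test. Cd68 encodes macrosialin, a glycoprotein of the late endosomes and lysosomes of macrophages and microglia, and lies on chromosome 11 (69664213 to 69666153, minus strand, GENCODE M21 on GRCm38). Its levels in the 4 naive vehicle libraries were 10.02, 8.768, 8.383 and 7.367 FPKM. In cuprizone vehicle libraries the lowest was 16.08, the median 25.04 and the highest 65.64 FPKM. Every cuprizone library lay above every naive one, and cuprizone vehicle 8 and 5 lay well above the other 6. The mean went from 8.634 ± 1.1 (SD, n = 4) to 31.78 ± 16.6 FPKM (SD, n = 8), a ratio of 3.68 and a log2 difference of 1.69 (SE 0.25, limma adjusted p = 3.59e-05). Without cuprizone vehicle 8 the log2 difference was 1.52.

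Laptm5, a lysosomal transmembrane protein of blood-derived cells and microglia, is on chromosome 4 (130913125 to 130936141, plus strand). It stood at 18.58, 16.46, 15.95 and 13.82 FPKM in naive vehicle libraries. Cuprizone vehicle libraries ran from 22.39 through a median of 31.09 to 68.16 FPKM. The groups did not overlap, with cuprizone vehicle 8 and 5 again highest and cuprizone vehicle 7 lowest. The ratio of means was 2.31 and the log2 difference 1.10 (SE 0.20, limma adjusted p = 0.000399).

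Scarb2, the receptor that carries glucocerebrosidase to lysosomes, went from 28.21 ± 1.12 FPKM (SD, n = 4) in naive to 30.9 ± 1.34 FPKM (SD, n = 8) in cuprizone libraries. Its log2 difference of 0.13 (SE 0.04, limma adjusted p = 0.015) was lost without naive vehicle 1 (adjusted p = 0.0558) or 3 (adjusted p = 0.0662). It was also lost when only the groups compared were fitted (limma adjusted p = 0.0541).

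Laptm4b, a relative of Laptm5 that is widely expressed, is on chromosome 15 (34238028 to 34284302, plus strand) and was the 1 gene that fell. Naive vehicle libraries held 44.46, 43.75, 44.7 and 47.05 FPKM. Cuprizone vehicle libraries ran from 35.95 through a median of 40.81 to 43.18 FPKM. All 8 lay below all 4 naive libraries, by a narrow margin. The mean fell from 44.99 ± 1.43 to 40.41 ± 2.18 FPKM (log2 difference -0.15, SE 0.04, limma adjusted p = 0.0207), and the call was lost without naive vehicle 4 (adjusted p = 0.0905).

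Lamp1, a main structural glycoprotein of the lysosomal membrane, measured 134.8 ± 8.54 FPKM (SD, n = 4) in naive and 140.3 ± 12.4 FPKM (SD, n = 8) in cuprizone libraries. Its log2 difference was 0.05 with a 95% interval of -0.06 to 0.17 (limma adjusted p = 0.569). Mcoln1, the calcium channel through which lysosomes signal, had a log2 difference of -0.09 (interval -0.19 to 0.02, limma adjusted p = 0.297). Cd63, a tetraspanin of late endosomes and exosomes, went from 41.48 ± 4.27 to 54.23 ± 12.3 FPKM and missed the threshold (log2 difference 0.36, limma adjusted p = 0.0673). Lamp2, Laptm4a and Cln3, the protein lost in juvenile Batten disease, did not pass the test either.

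**Figure D1:**
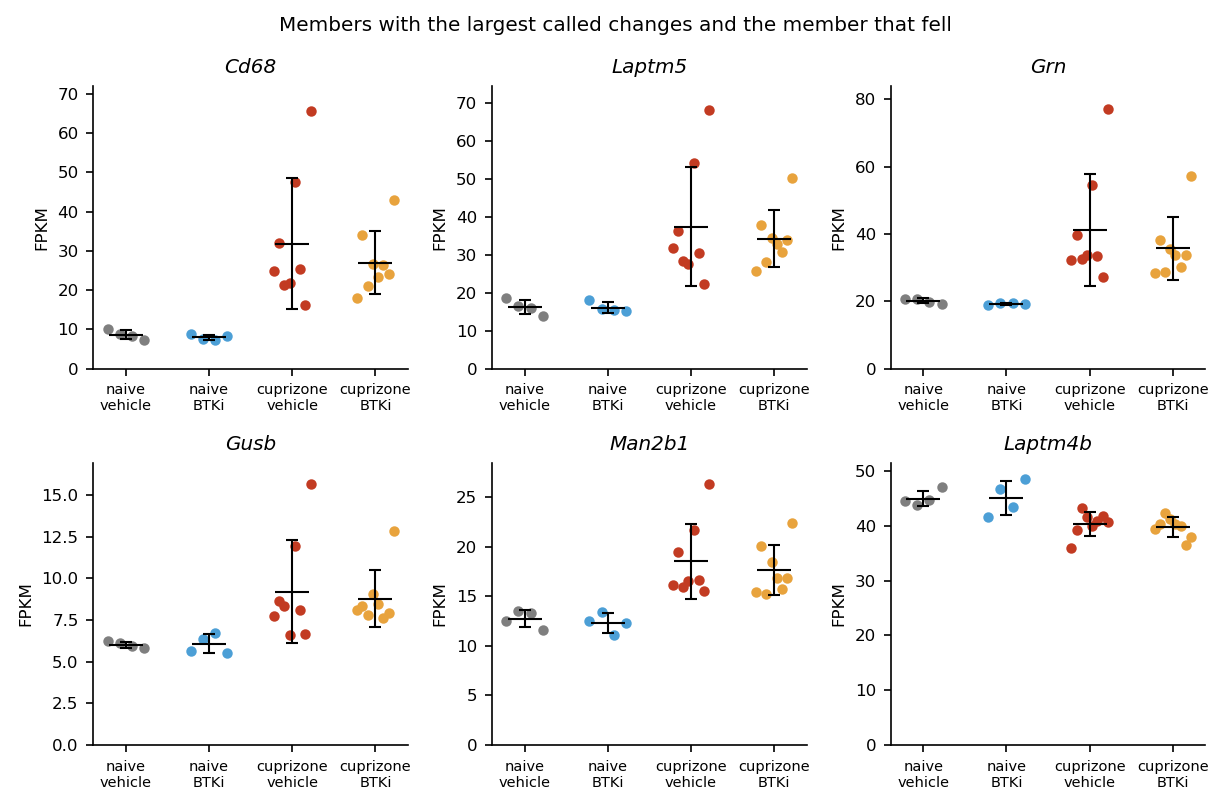
FPKM (vertical axes, from 0) of 6 lysosomal genes in each of the 24 libraries, grouped along the horizontal axis, with bars for the mean ± SD of each group (n = 4, 4, 8 and 8). Cd68, Laptm5 and Grn are higher in every cuprizone library than in any naive one, with cuprizone vehicle 8 highest, and Laptm4b is the gene that fell.

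Among the 7 enzymes of glycosaminoglycan breakdown, Gusb and Galns were higher and 5 did not pass the test. Gusb, the beta-glucuronidase that trims glucuronate from these chains, is on chromosome 5 (129989011 to 130003049, minus strand). Naive vehicle libraries held 6.22, 6.093, 5.945 and 5.824 FPKM. Cuprizone vehicle libraries ran from 6.578 through a median of 8.23 to 15.63 FPKM. The groups did not overlap, yet the lowest cuprizone library, cuprizone vehicle 4, stood close to the highest naive one. The ratio of means was 1.53 and the log2 difference 0.52 (SE 0.16, limma adjusted p = 0.0261), and the call was lost without naive vehicle 2 (adjusted p = 0.0563), 3 (0.0586) or 4 (0.0682). It was also lost when only the groups compared were fitted (limma adjusted p = 0.0805) or without a filter on low values (0.0649).

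Galns, a sulfatase of keratan sulfate, went from 2.744 ± 0.472 to 3.759 ± 0.58 FPKM (log2 difference 0.39, SE 0.10, limma adjusted p = 0.00754). Naglu and Sgsh, which act on heparan sulfate, had log2 differences of 0.28 and -0.16, the second being the lowest of the 37. Arsb, Ids and Idua, enzymes of dermatan sulfate breakdown, also did not pass the test.

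Among the 5 enzymes of glycoprotein and glycogen breakdown, Man2b1 and Neu1 were higher. Man2b1, the lysosomal alpha-mannosidase, is on chromosome 8 (85083270 to 85098282, plus strand). It measured 12.52, 13.55, 13.3 and 11.66 FPKM in naive vehicle libraries. In cuprizone vehicle libraries it ran from 15.56 through a median of 16.62 to 26.4 FPKM. Every cuprizone library exceeded every naive one. The ratio of means was 1.45 and the log2 difference 0.50 (SE 0.11, limma adjusted p = 0.00296). Neu1, the sialidase, went from 16.23 ± 0.901 to 17.86 ± 0.494 FPKM (log2 difference 0.14, SE 0.04, limma adjusted p = 0.024). That call was lost under other scalings (adjusted p = 0.108 with median ratios, 0.0725 with quantiles), and without naive vehicle 2 (adjusted p = 0.102) or 3 (0.0903). Gaa, the acid alpha-glucosidase that degrades glycogen, had the lowest value of the group, -0.04 on the log2 scale. Manba and Fuca1, a mannosidase and a fucosidase, did not pass the test.

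Among the 8 sphingolipid enzymes and activators, Hexa, Gm2a and Asah1 were higher, with no overlap between groups for any of them. Hexa, the alpha subunit of beta-hexosaminidase A, went from 23.34 ± 0.523 to 33.27 ± 8.01 FPKM (log2 difference 0.47, SE 0.12, limma adjusted p = 0.00559). Gm2a, the activator that lifts ganglioside GM2 to that enzyme, had a log2 difference of 0.25 (SE 0.07, limma adjusted p = 0.0104). Asah1, the acid ceramidase, had one of 0.23 (SE 0.06, limma adjusted p = 0.00882), which was lost without naive vehicle 1 (adjusted p = 0.0612), the library with its lowest level. The Asah1 call was also lost when only the groups compared were fitted (limma adjusted p = 0.0572). Psap measured 598.5 ± 33.6 FPKM (SD, n = 8) with cuprizone, a log2 difference of 0.03 (interval -0.06 to 0.12, limma adjusted p = 0.71). Arsa, which removes the sulfate of the myelin lipid sulfatide, had the lowest value of the group at -0.11. The galactosidases Glb1 and Gla and the acid sphingomyelinase Smpd1 did not pass the test.

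Of the 3 genes of sterol and lipid handling, Npc2, which hands cholesterol to the membrane protein Npc1, was higher. It went from 18.02 ± 1.35 to 25.74 ± 5.83 FPKM (log2 difference 0.48, SE 0.12, limma adjusted p = 0.00793), and the lowest cuprizone library (19.61 FPKM) lay below the highest naive one (19.84 FPKM). Lipa, the acid lipase of sterol esters, and Ppt1, a thioesterase that removes palmitate from proteins, had log2 differences of 0.07 and 0.00.

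Of the 4 tested genes for proteases, phosphatases and progranulin, Grn and Lgmn were higher. Grn encodes progranulin, a secreted glycoprotein that is processed in lysosomes, and lies on chromosome 11 (102430315 to 102437048, plus strand). Naive vehicle libraries held 20.6, 20.75, 19.76 and 19.21 FPKM. Cuprizone vehicle libraries ran from 27.13 through a median of 33.52 to 77.01 FPKM. The naive libraries lay within a narrow band and all 8 cuprizone libraries lay above it. The ratio of means was 2.05 and the log2 difference 0.94 (SE 0.19, limma adjusted p = 0.00117). Fam171a2, whose gene overlaps Grn on the other strand, had a log2 difference of 0.07 (limma adjusted p = 0.463). Lgmn, an endopeptidase that cuts after asparagine, had a log2 difference of 0.31 (SE 0.09, limma adjusted p = 0.0204), and the call was lost without naive vehicle 2 (adjusted p = 0.0557) or 4 (0.0586). The Lgmn call was also lost when only the groups compared were fitted (limma adjusted p = 0.0696) or without a filter on low values (0.0509). Tpp1, a tripeptidyl peptidase, and the phosphatase Acp2 did not pass the test. Acp5 ran from 0.171 to 0.7796 FPKM in naive vehicle and from 0.1448 to 0.4542 FPKM in cuprizone vehicle libraries.

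Most of the genes that rose were of middle abundance, read from the naive BTKi libraries, which this comparison does not use. Of the 13 most abundant (means of 30.2 to 578 FPKM), 1 was higher (Lgmn) and 1 lower, while 10.4% of all genes in that range were higher. Of the 12 in the middle (11.8 to 28.2 FPKM), 9 were higher, against 9.16% of all genes in that range. Of the 12 least abundant tested (1.7 to 11.6 FPKM), 3 were higher (Cd68, Gusb and Galns), against 9.77%. The summed level of the 38 genes was 1656 ± 36.6 FPKM (SD, n = 4) in naive and 1810 ± 160 FPKM (SD, n = 8) in cuprizone vehicle libraries. Of the matched promoters, 0 of 11 of the genes that were higher and 8 of 23 of those not called held CACGTG, given here as a count with no test. Over all mouse promoters the share was 7.15%, and 11 promoters are too few to read a share from. The share among all genes that were higher was not counted.

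Under BTKi, cuprizone was compared with naive libraries that share none with the vehicle comparison, and 11 of the 37 were higher and 1 lower by limma. Of all genes tested, 6.11% were higher and 1.77% lower (7.87% called). Groups did not overlap for 14 that were higher, against 5.7% of all genes, and for 0 that were lower, against 1.47%. Over all genes the split went from 929 higher and 269 lower to 772 and 406 with median ratios and 724 and 395 with quantiles, with 11 and 13 of the 37 higher. Without naive BTKi 3, 6 of the 37 were higher. Without the 3 libraries poor in choroid plexus RNA, 15 were higher and 1 lower. Those 3 are cuprizone vehicle libraries, so they enter this comparison only through the shared estimate of the spread and the filter.

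Cd68 in the 4 naive BTKi libraries stood at 8.807, 7.594, 7.316 and 8.198 FPKM, and in cuprizone BTKi libraries ran from 17.89 through a median of 25.2 to 42.89 FPKM (log2 difference 1.65, SE 0.25, limma adjusted p = 8.58e-05). Laptm5 stood at 18.04, 15.64, 15.39 and 15.22 FPKM and then ran from 25.74 through 33.39 to 50.22 FPKM (log2 difference 1.05, SE 0.20, limma adjusted p = 0.0011). Grn stood at 18.72, 19.57, 19.4 and 19.23 FPKM and then ran from 28.36 through 33.63 to 57.13 FPKM (log2 difference 0.84, SE 0.19, limma adjusted p = 0.00532). For these 3 no cuprizone library overlapped a naive one, and cuprizone BTKi 8 was highest. Man2b1 stood at 12.53, 13.47, 11.06 and 12.31 FPKM and then ran from 15.26 through 16.86 to 22.46 FPKM (log2 difference 0.49, SE 0.11, limma adjusted p = 0.00583). Gusb went from 5.662, 6.363, 6.745 and 5.542 FPKM to a range of 7.638 to 12.86 FPKM with a median of 8.226, without overlap, and missed the threshold (log2 difference 0.48, SE 0.16, limma adjusted p = 0.0639). Lamp1 (log2 difference 0.17, interval 0.06 to 0.29, limma adjusted p = 0.0556) and Lgmn (0.28, interval 0.10 to 0.47, 0.0529) were also higher without overlap and missed it. Laptm4b stood at 41.64, 46.69, 43.4 and 48.49 FPKM and then ran from 36.52 through 40.18 to 42.28 FPKM. These ranges overlap, and its log2 difference of -0.18 (SE 0.04, limma adjusted p = 0.0133) was lost without naive BTKi 2 (adjusted p = 0.0647) or 4 (0.0943).

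The genes that were higher under both treatments numbered 8, which is 61.5% of those under vehicle and 72.7% of those under BTKi: Cd68, Gm2a, Grn, Hexa, Laptm5, Man2b1, Npc2 and Scarb2. Over all genes tested, 669 were higher under both, which is 43.0% of the 1555 under vehicle and 72.0% of the 929 under BTKi. Of the 8 genes, Hexa lost its call under BTKi without any 1 of the 4 naive BTKi libraries (adjusted p from 0.0673 to 0.0827) or without cuprizone BTKi 8 (0.0621), and Npc2 without naive BTKi 3 (0.0717). Hexa also lost it without a filter on low values (limma adjusted p = 0.0821). Cd63, Fuca1 and Lamp2 passed under BTKi and not under vehicle. Their log2 differences were 0.49, 0.35 and 0.30, each lost without naive BTKi 3 (adjusted p = 0.0923, 0.193 and 0.0958). Cd63 was also lost without naive BTKi 4 and Lamp2 without naive BTKi 1 or 4. Fuca1 was also lost without naive BTKi 1 or without cuprizone BTKi 2, 4, 5 or 8. Without a filter on low values Cd63, Fuca1 and Lamp2 were lost as well (limma adjusted p = 0.0522, 0.0854 and 0.0553). Asah1, Galns, Gusb, Lgmn and Neu1 passed under vehicle alone. The test of the difference between both effects called 0 of the 37 by limma, while 0.125% of all genes were called (0.00657% higher and 0.118% lower), so none of the 37 was shown to respond differently. An unadjusted p under 0.05 was found for 2 of the 37 and for 9.74% of all genes. The lowest adjusted p was that of Neu1, 0.359, with log2 differences of 0.14 under vehicle and -0.03 under BTKi.

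**Figure D2:**
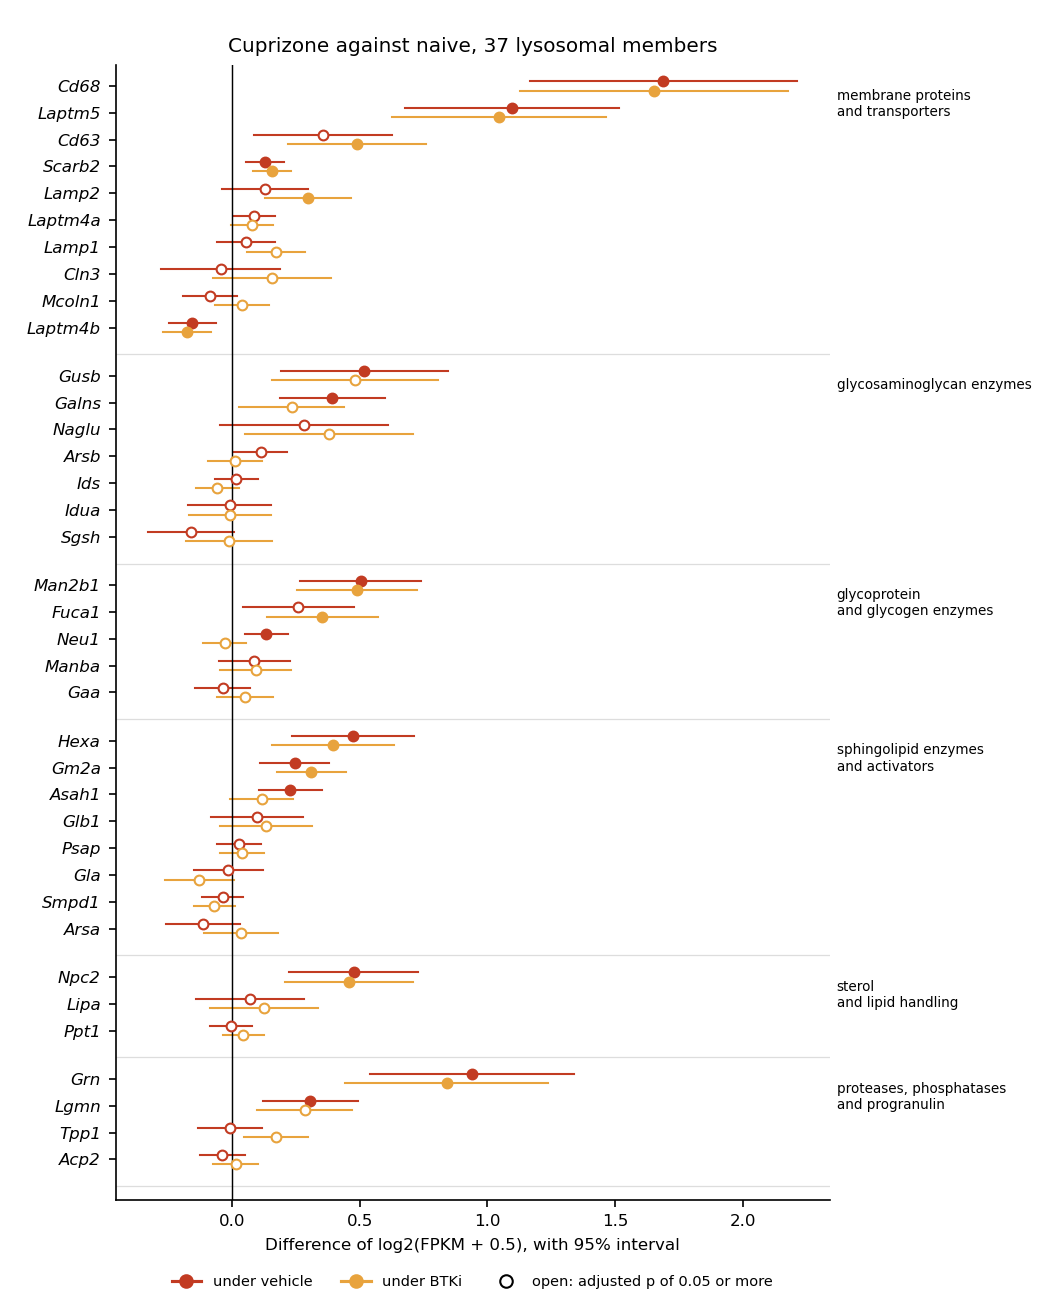
Difference of log2(FPKM + 0.5) between cuprizone and naive libraries (horizontal axis) with 95% intervals from limma for the 37 genes tested, by role, under vehicle (red) and under BTKi (orange), with filled points for adjusted p under 0.05. Cd68, Laptm5 and Grn stand far to the right under both treatments, and most hydrolases lie near 0.

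The comparison of BTKi with vehicle asks whether the inhibitor changed these genes. In cuprizone libraries 0 of the 37 passed by limma, while 0.177% of all genes did (0.0394% higher and 0.138% lower). An unadjusted p under 0.05 was found for 2 of the 37 (Idua and Gla) and for 8.79% of all genes. In naive libraries 0 of the 37 passed, while 0.217% of all genes did (0.105% higher and 0.112% lower). An unadjusted p under 0.05 was found there for 5 of the 37 (Idua, Sgsh, Tpp1, Neu1 and Arsa) and for 12.6% of all genes, a like share. The median log2 difference of the 37 was -0.02 in cuprizone and -0.06 in naive libraries, and over all genes it was -0.02 in both.

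Cd68 had a log2 difference of -0.14 in cuprizone libraries, with a 95% interval of -0.57 to 0.29, from means of 31.78 and 26.99 FPKM. The intervals of Laptm5 and Grn also spanned 0. For Lamp1 the log2 difference was 0.01.

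Idua, the iduronidase of dermatan and heparan sulfate, had the lowest adjusted p of the 37 in both comparisons and is described because of its values. It lies on chromosome 5 (108660331 to 108684557, plus strand). In naive libraries it stood at 7.5, 8.063, 7.451 and 6.876 FPKM with vehicle and at 6.788, 6.525, 5.746 and 5.312 FPKM with BTKi, without overlap. Its log2 difference there was -0.28 (SE 0.09, limma unadjusted p = 0.00523, adjusted p = 0.201). In cuprizone libraries it ran from 6.444 through 7.357 to 8.931 FPKM with vehicle and from 5.317 through 6.063 to 7.292 FPKM with BTKi, which overlap. The log2 difference there was also -0.28 (SE 0.06, interval -0.41 to -0.15, limma adjusted p = 0.082). It passed without cuprizone BTKi 4 (adjusted p = 0.0293), the highest library of its group, or without cuprizone vehicle 6 (0.0418), and adjusted p ranged from 0.0293 to 0.246 over 34 alternatives. Dgkq, a diacylglycerol kinase gene that overlaps Idua on the other strand, had log2 differences of -0.02 in cuprizone (adjusted p = 0.944) and -0.12 in naive libraries (0.51). Slc26a1, an anion exchanger gene that also overlaps Idua on the other strand, was below the filter and not tested. It measured 0.321 ± 0.0478 FPKM with vehicle and 0.291 ± 0.0672 with BTKi in cuprizone libraries (SD, n = 8), and 0.355 ± 0.0736 and 0.282 ± 0.0473 in naive libraries (SD, n = 4).

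In naive libraries the groups did not overlap for 4 genes that were lower with BTKi (Idua, Lamp1, Manba and Sgsh), against 4.93% of all genes. They did not overlap for 1 that was higher (Asah1), against 2.43%. In cuprizone libraries this held for 0 of the 37 in either direction, against 0.0263% higher and 0.105% lower of all genes. These non-overlapping genes were picked out after their values were seen, and none passed the limma test. Markers of other cells moved with the naive BTKi group. All 11 oligodendrocyte markers had a negative log2 difference there (median -0.32), with 9 of 11 lower without overlap, and summed to 3044 to 3108 FPKM against 3508 to 4926 FPKM with vehicle. All 8 striatal neuron markers (median -0.48) and all 8 choroid plexus markers (median -0.43) were negative too. None of these markers passed the limma test, and their part in the lysosomal values was not tested.

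**Figure D3:**
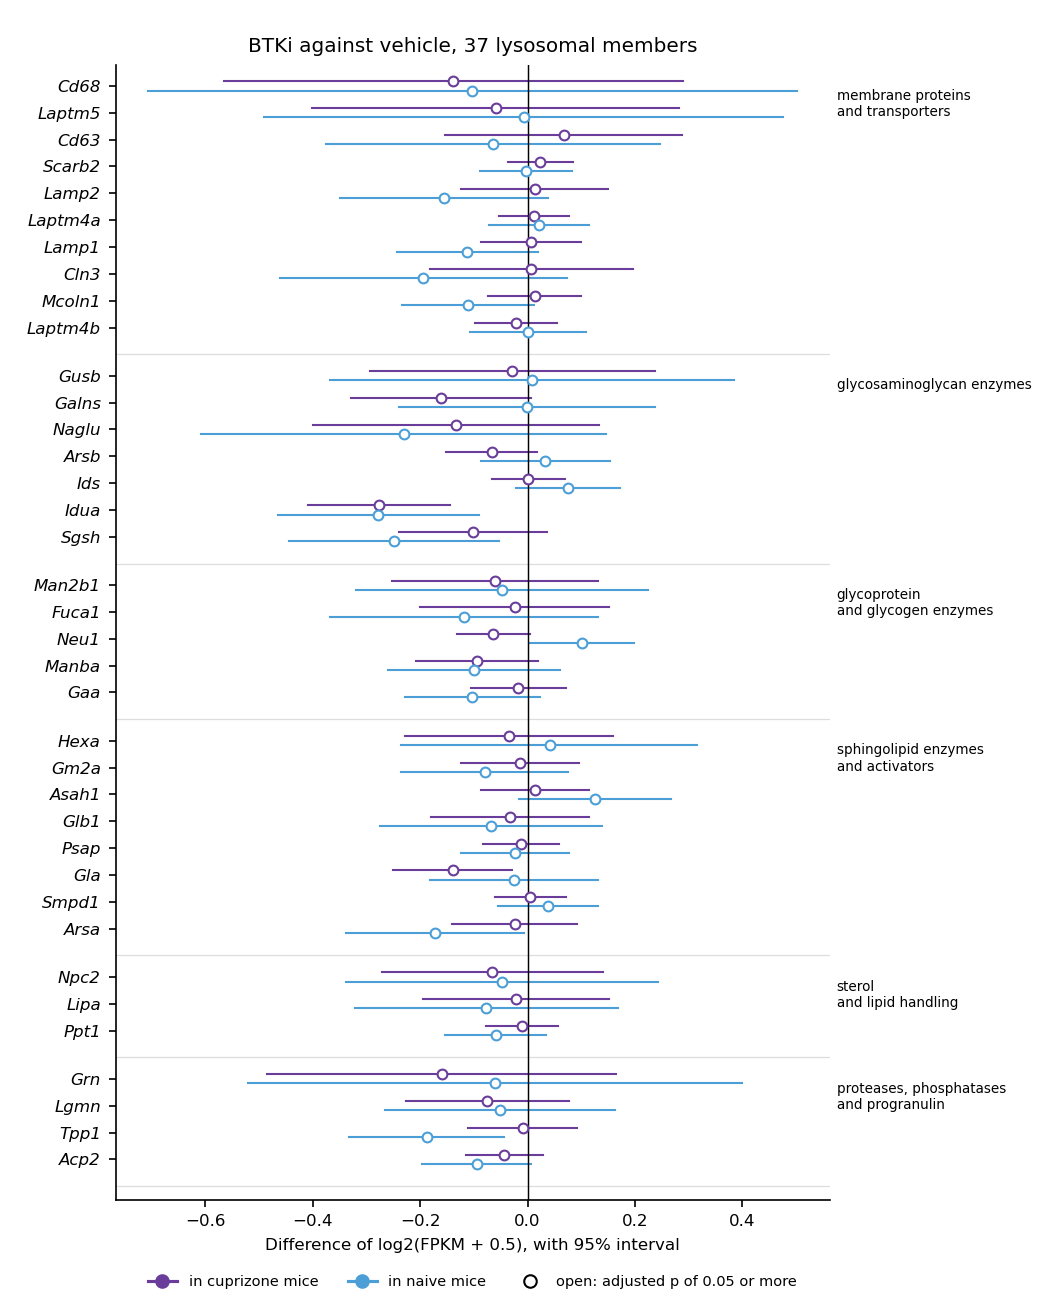
Difference of log2(FPKM + 0.5) between BTKi and vehicle libraries (horizontal axis) with 95% intervals from limma for the 37 genes tested, by role, in cuprizone (purple) and naive mice (blue). All points are open, since no adjusted p was under 0.05, and Idua stands to the left of 0 in both.

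Several cell types moved with these groups. Of 16 microglia markers, none of them among the 38 genes and none at 0 in any library, 14 were higher under vehicle and 13 under BTKi by limma. Their summed level was 221.1 to 266.5 FPKM in naive vehicle, 227.8 to 257.6 in naive BTKi, 365 to 1072 in cuprizone vehicle and 399.7 to 812.4 in cuprizone BTKi libraries. All 11 oligodendrocyte markers were lower under vehicle and under BTKi. Of 8 astrocyte markers, 4 were higher in each comparison, and 1 was lower under vehicle. All 8 striatal neuron markers were lower under vehicle (median -0.94, 3 of 8 lower without naive vehicle 2, 4 of 8 without the libraries poor in choroid plexus RNA), and 0 of 8 were called under BTKi. The 8 choroid plexus markers all had negative values under vehicle with an unadjusted p under 0.05 (median -1.28), and 0 passed after adjustment (4 without cuprizone vehicle 2 or 6). Of 9 neuron markers, 0 passed in either comparison (3 under vehicle and 2 under BTKi with an unadjusted p under 0.05). Of 7 markers of border macrophages and monocytes, 2 passed the filter on low values, Mrc1 and Pf4. Mrc1 was higher under vehicle (log2 difference 0.31, limma adjusted p = 0.0401), Pf4 was not called, and 0 were called under BTKi. Ms4a7, below the filter, went from 0.136 ± 0.086 to 0.581 ± 0.228 FPKM under vehicle without overlap, and its groups overlapped under BTKi. Cd163, Lyve1, Ccr2 and F13a1, also below it, overlapped under vehicle. The part of these cell types in the lysosomal differences was not tested.

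Within the 16 cuprizone libraries, the levels of many of the 37 genes followed a microglia score, the mean of the gene-centred log2 levels of the 16 markers. Laptm5 followed it most closely (Pearson's r = 0.99, Spearman's rho = 0.98, both with a permutation p of 1e-05, the smallest that 100000 resamples give). Grn had r = 0.98 and rho = 0.95, Man2b1 r = 0.97 and rho = 0.96, and Cd68 r = 0.96 and rho = 0.92, each with permutation p-values of 1e-05. The score was highest in cuprizone vehicle 8 and cuprizone BTKi 8, and without these 2 r was 0.98 for Laptm5, 0.95 for Grn, 0.91 for Man2b1 and 0.93 for Cd68. Within the 8 vehicle libraries r was 0.99 for Laptm5 and 0.99 for Cd68, and within the 8 BTKi libraries 0.98 and 0.92.

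Of the 37 genes, 24 had an r over 0.5, as did 8.94% of 15163 other genes tested. Some of the 24 followed the score in 1 drug group only. Arsb had r = 0.89 within the vehicle and -0.015 within the BTKi libraries, and Manba 0.87 and 0.04. Others, such as Grn (0.99 in each), followed it in both. Of the 13 genes that were higher with cuprizone, 12 had an r over 0.5 (median 0.95), as did 40.9% of 1528 other genes that were higher (median 0.38). The exception was Neu1, with r = 0.35 (rho = 0.24, permutation p = 0.187 and 0.367). Its r was 0.83 within the vehicle and 0.10 within the BTKi libraries. Of the 24 genes not higher with cuprizone, 12 had an r over 0.5 (median 0.49), among them Naglu at 0.89, Cd63 at 0.85 and Lamp1 at 0.78. Gaa stood at -0.02, Smpd1 at -0.13, Laptm4b at -0.23 and Ids at -0.52. These relations number 37, come from the same libraries and share their depth, and they are given as descriptions.

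**Figure D4:**
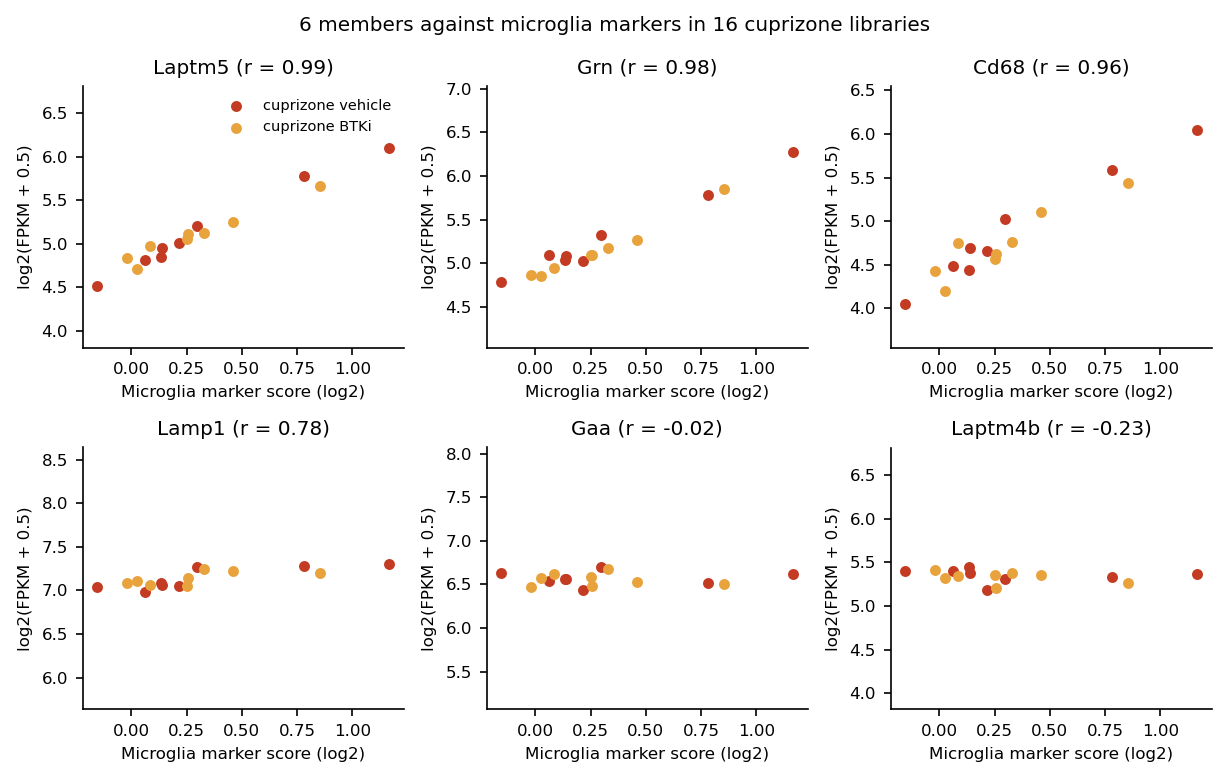
Levels of 6 lysosomal genes as log2(FPKM + 0.5) (vertical axes, all of 1 length) against the microglia marker score (horizontal axis, log2) in the 8 cuprizone vehicle (red) and 8 cuprizone BTKi (orange) libraries, 1 point a library. Laptm5, Grn and Cd68 rise along the score, Lamp1 slopes slightly upward, and Gaa and Laptm4b stay level.

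The same libraries were high for most genes that rose. Of the 16 genes that were higher with cuprizone in either comparison, 15 had their highest vehicle value in cuprizone vehicle 8 and 1 in cuprizone vehicle 5. Cuprizone BTKi 8 was the highest of its group for 12 of the 16. These genes were picked by their high values in the same cuprizone libraries. How often these libraries were highest over all genes was not counted.

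Other lysosomal genes were taken from lists by function. Of 27 other lysosomal proteins, 3 were higher under vehicle (11.1%, against 10.2% of all genes) and 1 was lower (3.7%, against 4.82%). Their median log2 difference was 0.04. Dnase2a, the acid deoxyribonuclease, had a log2 difference of 0.74 (limma adjusted p = 0.00178). Npc1, the membrane partner of Npc2, fell by 0.36 on the log2 scale (limma adjusted p = 2.76e-05), whereas Npc2 rose. Under BTKi, 5 of the 27 were higher (18.5%, against 6.11% of all genes) and 1 was lower (3.7%, against 1.77%).

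Of 19 tested subunits of the V-ATPase, the pump that acidifies lysosomes, 1 was higher under vehicle (5.26%, against 10.2% of all genes) and none lower. Under BTKi 1 was higher and 14 of 19 had negative values, 6 of the 19 had an unadjusted p under 0.05, and 2 were lower without overlap, none of them called. The tested gene that was higher in both comparisons was Tcirg1, a subunit found in osteoclasts and myeloid cells. Under vehicle it went from 5.8 ± 0.848 to 9.23 ± 1.74 FPKM (log2 difference 0.62, limma adjusted p = 0.00133). Atp6v0d2, a listed subunit below the filter, was not tested. It went from 0.00325 to 0.271 FPKM under vehicle and from 0.00328 to 0.16 FPKM under BTKi, without overlap in either, at levels near the floor. Of 14 tested regulators of lysosomal genes, TFEB and its relatives and the mTORC1 machinery, 1 was higher under vehicle (7.14%, a share below that of all genes), Flcn, at 0.18 (limma adjusted p = 0.0203). Under BTKi 0 of the 14 were called by limma, and 0 had an unadjusted p under 0.05. Of 11 tested cathepsins, 9 were higher under vehicle (81.8%, against 10.2% of all genes) and 1, Ctsk, was lower (9.09%, against 4.82%). Their median log2 difference was 0.48, and Ctss was highest at 1.71. Ctsk had a limma adjusted p of 0.0486, and its call was lost without any 1 of the 4 naive vehicle libraries, among others. Under BTKi, 7 of the 11 were higher (63.6%, against 6.11% of all genes) and 0 were lower (against 1.77%), with a median of 0.38.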

How the data were processed

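The authors deposited FPKM values per gene and library. Libraries were made with a stranded TruSeq mRNA kit, per the labels' protocols. No source used here names the aligner, counter, genome build or annotation. Because FPKM values are not counts, a linear model on the log scale was used. All 24 libraries entered 1 limma 3.58.1 model (R 4.3.3; lmFit, contrasts.fit, eBayes with trend) of 4 groups on log2(FPKM + 0.5), for the 15216 genes with a mean of at least 0.5 FPKM, with Benjamini-Hochberg adjustment over all of them at 0.05. A fold change on this scale understates changes of low genes. Values are mean ± SD on the FPKM scale and SE on the log2 scale.

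The genes and lists were chosen with earlier results of these data known. Values per library were given for genes called with a log2 difference of at least 0.5, called lower, or called for BTKi, and for Idua, chosen after its values were seen, and the other members by group. From each other list up to 4 called genes with the largest differences were named, except for items that are not reported here. Coordinates are from GENCODE M21 (GRCm38), which lists 37 of the 38 IDs in the same version. Since strand-aware counting is not stated, reads of the 15 genes that overlap another gene on the opposite strand cannot be told apart from its reads.

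Depth was estimated from genes with 1 transcript, where 92.1% to 94.6% of values of up to 10 fragments lay within 0.1 of a whole multiple of 1 fragment, against 20% by chance. In the least covered tested gene, Sgsh, libraries held about 176 to 328 fragments. Correlations used 100000 permutations (numpy 2.4.6, scipy 1.17.1). The fit was tested on data with known changes for cuprizone against naive under vehicle only, not for the BTKi comparisons. Alternatives were pseudocounts of 0.1 and 1, no filter, a filter at 1 FPKM, median ratio and quantile scaling, a replicate block, each comparison's own groups, no trend and each library left out. The fit without the 3 libraries poor in choroid plexus RNA was added after earlier results had been seen.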

Additional observations from a re-analysis of the deposited data

Results flagged for a closer look

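Of 152 sets of 4 or 8 libraries (38 genes in 4 groups), 14 held 1 library far from the rest, its gap to the nearest other library being large for the range of the group. About 1 in 20 such sets is expected by chance. In cuprizone BTKi 8 this held for 5 genes: Grn at 57.13 FPKM (the others from 28.36 to 38.11), Hexa at 40.93 (27.1 to 32.53), Gusb at 12.86 (7.638 to 9.051), Naglu at 5.674 (3.135 to 4.27) and Arsa at 14.18 (10.52 to 12.12). That library also had the highest microglia marker score of its group, and the part of microglia in these values was not tested. In naive BTKi 2 it held for Acp2 at 18.24 FPKM (17.07 to 17.21), Glb1 at 11.21 (8.602 to 8.789) and Lipa at 7.234 (6.254 to 6.346).

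The other 6 were spread over 6 libraries. Fuca1 stood at 21.1 FPKM in cuprizone vehicle 8 (12.96 to 16.51), Scarb2 at 33.82 in cuprizone vehicle 5 (29.45 to 31.43) and Idua at 7.292 in cuprizone BTKi 4 (5.317 to 6.226). Laptm5 stood at 18.04 FPKM in naive BTKi 1 (15.22 to 15.64) and Sgsh at 2.457 in naive vehicle 2 (1.977 to 2.031). Asah1 was low in naive vehicle 1, at 16.47 FPKM (19.06 to 19.47).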

How the results depend on the processing

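None of the single-gene values and counts recomputed changed direction under the alternatives run. The median over all genes, near 0, did: with quantiles it was -0.00345 for cuprizone under vehicle, -0.0176 for cuprizone under BTKi (-0.00491 with median ratios), and 0.00184 and 0.00791 for BTKi in cuprizone and naive mice. Values of single genes were followed only for genes called in the main fit and for Idua with BTKi. Of these values, 907 stayed on the same side of the threshold, 43 lost it and 2 (Idua with BTKi in cuprizone mice) gained it. Gains by the other genes are not in this tally. Some did gain a call, since the number higher under vehicle rose from 13 to 17 without the libraries poor in choroid plexus RNA. Cd68, Laptm5, Grn, Man2b1 and Gm2a kept their calls in both cuprizone comparisons under every alternative run. Without a filter on low values, 7 of the 37 genes were higher with cuprizone under BTKi, 16 genes in all were called for BTKi in cuprizone mice and 21 in naive mice. With each comparison's own groups alone 3 genes were called for BTKi in naive mice, and 9 of the 37 were higher with cuprizone under vehicle. Without the libraries poor in choroid plexus RNA, 11 genes were called for BTKi in cuprizone mice, 19 in naive mice and 7 for the difference of the BTKi effects, and 17 and 15 of the 37 were higher with cuprizone under vehicle and BTKi. The libraries poor in choroid plexus RNA are all cuprizone vehicle libraries. For cuprizone under BTKi and for BTKi in naive mice, leaving them out changed only the shared estimate of the spread and the filter. The cause of the other moves was not tested. With the replicate block 9 genes were called for the difference of the BTKi effects, and 12 of the 37 were higher under vehicle (Neu1 lost, adjusted p = 0.0725) and 12 under BTKi. Whether the numbers pair the samples is not said in the labels and was not tested. Of 28 same-numbered pairs, 8 had deviations correlated above 0.1 (range -0.274 to 0.324). Among libraries of other groups, 9 of 24 libraries correlated best with a library of their own number. How many would do so by chance was not counted.

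Leaving out 1 library at a time gave 1824 to 2390 genes called for cuprizone under vehicle, with 10 to 14 of the 37 higher and 0 to 1 lower (0 without naive vehicle 4). Under BTKi it gave 861 to 1294 genes, with 6 to 14 of the 37 higher (6 without naive BTKi 3) and 0 to 1 lower (0 without naive BTKi 2 or 4). It gave 14 to 34 genes for BTKi in cuprizone mice (0 to 1 of the 37 lower), 7 to 41 in naive mice and 8 to 23 for the difference of the BTKi effects. Depth limits the lowest gene most: Acp5 rested on about 9.02 to 47.9 fragments a library.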
